A study of Arabidopsis thaliana with 6 samples.

Results

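The autophagy genes described here are 40 genes of Arabidopsis thaliana: the ATG genes numbered from ATG1 to ATG18 and ATG101, with NBR1, VPS34 and VPS15, taken by locus identifier from tables that list 23022 genes in all. Their transcript levels were compared between 17ab seedlings and wild type (WT) seedlings, with 3 libraries of each. Of the 40 genes, 39 were listed in all 6 libraries. The remaining gene, ATG18E (AT5G05150), was listed in none and was taken as 0. For 32 of the 40 the reference gene table gives an ATG, NBR or VPS name. The other 8 carry here the names in general use: ATG1A (AT3G61960), ATG1B (AT3G53930), ATG1C (AT2G37840), ATG4A (AT2G44140), ATG4B (AT3G59950), ATG13B (AT3G18770), ATG14A (AT1G77890) and ATG16 (AT5G50230).

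Autophagy carries cytoplasm and organelles to the vacuole inside a double membrane, the autophagosome. The ATG1 kinase complex starts it, ATG9 and ATG2 bring membrane and lipid, the VPS34 complex makes the lipid phosphatidylinositol 3-phosphate, ATG18 proteins bind that lipid, and 2 conjugation routes attach ATG8 to the membrane, where receptors such as NBR1 tie cargo to it. In Arabidopsis seedlings the pathway is best known for recycling under carbon and nitrogen starvation, and the endoplasmic reticulum stress sensor IRE1B is known to be needed for the autophagy that such stress sets off.

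Polyadenylated RNA was taken from whole seedlings grown upright on plates of half-strength medium for 10 days. No treatment separates the groups, and the labels name neither the mutated genes and alleles of 17ab nor the accession of either genotype. Library totals were 6261789 to 6292461 expected counts in 17ab and 5968854 to 6198230 in WT. The level of bZIP17, which encodes a membrane-anchored transcription factor, was 2.08, 1.90 and 2.08 FPKM (fragments per unit of gene length and library size) in 17ab, against 10.7, 11.3 and 10.2 FPKM in WT. IRE1A had 3.73, 3.99 and 4.06 FPKM in 17ab and 12.6, 12.3 and 12.1 FPKM in WT, and IRE1B had 5.27, 5.06 and 4.52 FPKM in 17ab and 8.24, 7.81 and 8.22 FPKM in WT. The labels do not say whether libraries came from separate plates, so the p-values rest on a spread between libraries that could be technical. In whole seedlings, fewer cells of a type and less RNA per cell cannot be told apart. The summed level of 5 root markers was 54.6 to 60.8 FPKM in 17ab and 48.7 to 51.4 FPKM in WT, but its members did not move together: AKT1 and PHO1 rose (edgeR log2 fold changes 0.90 and 0.53, adjusted p = 0.0002546 and 0.01815), GL2 fell (-0.35, adjusted p = 0.02784), and SHR and SCR differed by 0.07 and -0.03 and did not pass. The summed level of 5 shoot markers, most of it from RBCS1A and LHCB1.3, was 23115 to 26171 FPKM in 17ab and 25106 to 29226 FPKM in WT, groups that overlapped. Of these, CA1 fell (edgeR log2 fold change -0.31, adjusted p = 0.02924), RBCS1A was lower in every 17ab library without passing (-0.26, adjusted p = 0.05214), and the other 3 did not pass. The seed storage gene CRA1 fell (edgeR log2 fold change -1.504, adjusted p = 0.01762) at levels of 0.58 to 0.87 FPKM in 17ab and 1.28 to 2.55 FPKM in WT. Of 4 senescence markers SAG12 was listed in no library, and SAG13, SEN1 and NYE1 were listed in all 6, with a summed level of 96.5 to 217.2 FPKM in 17ab and 156.7 to 217.0 FPKM in WT and none of the 3 passing the test. The part of tissue make-up in the results was not tested.

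Across the autophagy genes, 1 of the 39 tested rose in 17ab and none fell. The riser was the cargo receptor NBR1. The test was edgeR's quasi-likelihood test over 17854 genes with Benjamini-Hochberg adjustment and a threshold of 0.05, under which 14.1% of all genes tested were called (7.57% rose and 6.51% fell), against 2.56% of the autophagy genes. At an unadjusted p under 0.05 the autophagy genes had 6 members (ATG1A, ATG2, ATG18A, ATG18B, ATG18G and NBR1), and the share among all genes was 27.5%. With DESeq2 in place of edgeR, which called 7.86% of all genes, NBR1 was again the 1 member that rose and none fell. NBR1 was likewise called with 11.6% of all genes called without a filter on low counts, with 10.4% called under the replicate block, and with 11.6%, 10.8% and 11.2% called without 17ab replicates 1, 2 and 3. It was called too where 9.62%, 8.67% and 8.72% of all genes were, without WT replicates 1, 2 and 3. The 95% interval of the difference lay inside 1.5-fold either way for 33 of the 39 genes, and for 62.3% of all genes. For ATG8G, ATG8H, ATG12B, ATG14A, ATG18B and ATG18D the interval reached past that fold, so a change of such size was not excluded at this depth.

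The small differences were mostly in 1 direction. The log2 fold change of 17ab over WT was above 0 for 28 of the 39 genes (71.8%) and below 0 for 11. Over all genes it was above 0 for 49.6%. With a library left out, the count above 0 lay between 23 (without WT replicate 3) and 29 (without WT replicate 1) of the 39. The median over the 39 genes was 0.09, and over all genes it was -0.002. The range ran from -0.41 for ATG12B to 0.37 for NBR1. For 14 autophagy genes (35.9% of those listed) every 17ab library had a higher FPKM than every WT library, and 18.2% of all genes tested did so. For 1 gene, ATG18B, every 17ab library was lower, and 12.9% of all genes were. The size of the median depended on the scaling: with each library's trend on GC content and gene length removed it was 0.04, with the median of all genes at -0.04. Under that scaling the calls over all genes split into 1093 that rose and 1462 that fell, against 1352 and 1163 without it.

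**Figure D1:**
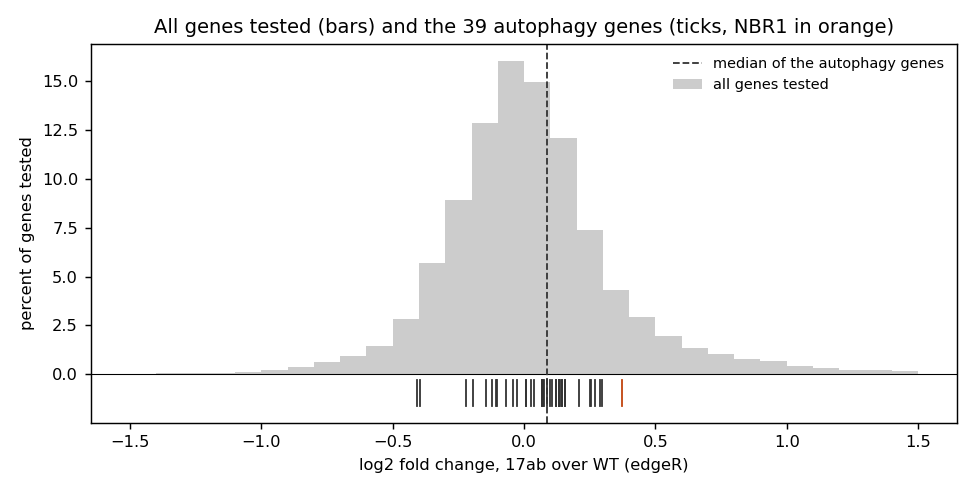
Distribution of log2 fold changes of 17ab over WT, with the bars giving the percent of the 17854 genes tested per bin of the log2 scale and the ticks below giving the 39 autophagy genes. The ticks lie between -0.41 and 0.37, NBR1 is the orange tick at the upper end, and the dashed line marks the autophagy median of 0.09. A further 185 genes lie outside the drawn range.

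NBR1 (AT4G24690) binds ubiquitin and ATG8 and brings protein aggregates to the autophagosome. It had 97.3, 97.4 and 104.8 FPKM in 17ab, against 73.1, 76.4 and 77.4 FPKM in WT. The lowest 17ab library lay above the highest WT library by more than the spread within either group, and the means were 99.8 ± 4.32 FPKM in 17ab and 75.6 ± 2.22 FPKM in WT (SD, n = 3 each). The log2 fold change was 0.37 ± 0.07 (SE), 1.3-fold, with a 95% interval of 0.23 to 0.52 and an adjusted p of 0.002326 by edgeR. Per length, NBR1 was the most abundant of the autophagy transcripts in 17ab, while in WT it came after ATG8F at 78.6 FPKM. In size the difference was not unusual, since 11.9% of all genes tested had a log2 fold change at or above it. Its reads were whole counts in all 6 libraries, with a mean of 1509 per library. NBR1 shares 101 bases with AT4G24700 on the other strand, and the sources used here do not say whether counting was by strand. That neighbour averaged 5.96 FPKM in 17ab and 8.84 FPKM in WT, a difference that did not pass (edgeR adjusted p = 0.2441). Whether the shared bases affect the NBR1 count was not tested.

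**Figure D2:**
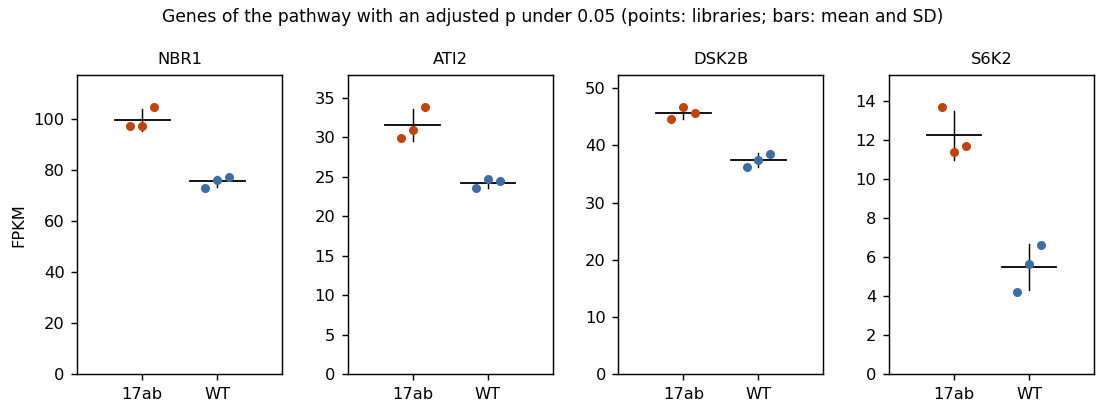
FPKM of NBR1 and of 3 other pathway genes, ATI2, DSK2B and S6K2, in each 17ab and WT library, on axes that start at 0, with points for libraries, horizontal bars for means and vertical bars for SD over 3 libraries. These genes were drawn because they passed the edgeR test. In each panel the lowest 17ab library lies above the highest WT library, as was so for 18.2% of all genes tested. S6K2 and DSK2B share reads with S6K1 and DSK2A, and the summed counts of these pairs did not pass.

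**Figure D3:**
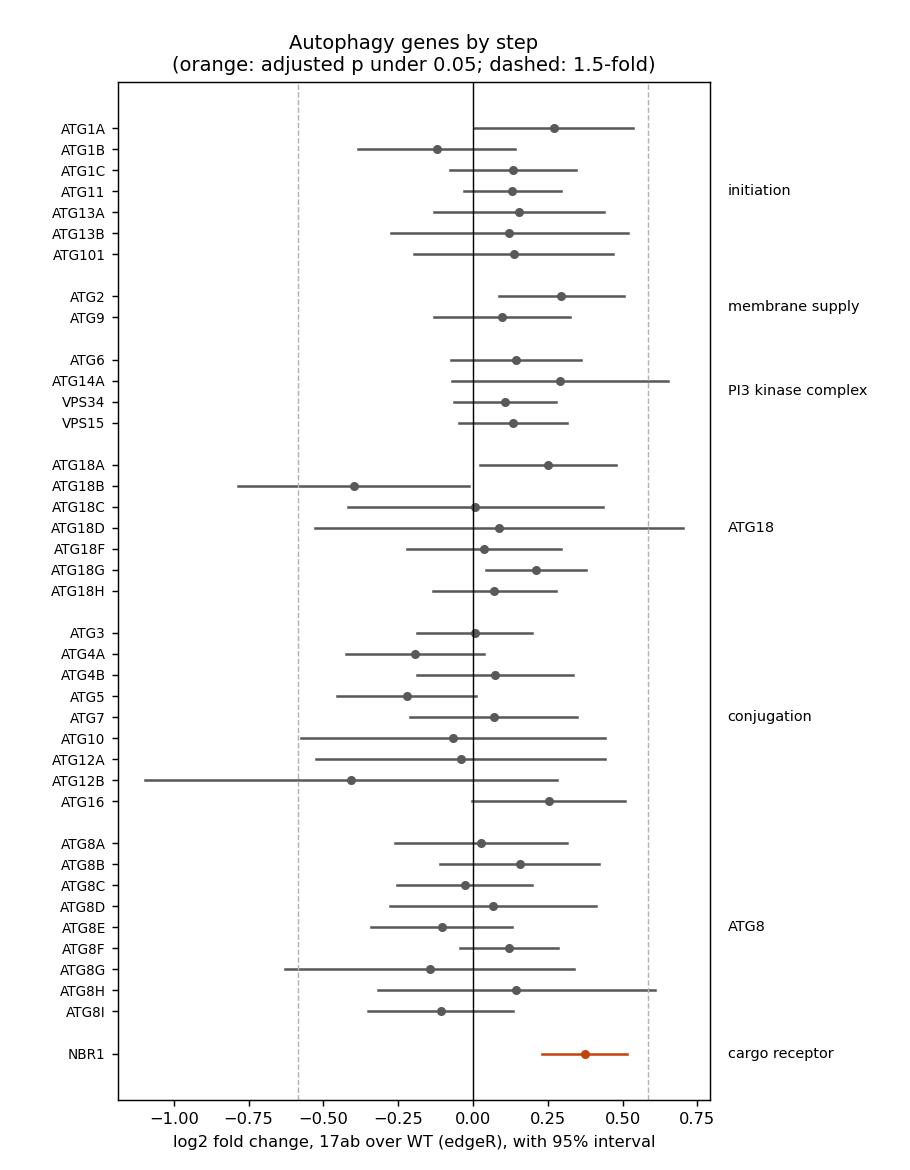
Log2 fold change of 17ab over WT for each of the 39 listed autophagy genes, grouped by step, with the 95% interval from edgeR as a horizontal line and dashed lines at 1.5-fold in either direction. NBR1, in orange at 0.37, is the gene with an adjusted p under 0.05, and 28 of the points lie right of 0.

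None of the 7 initiation genes passed the test. These encode the ATG1 kinases that start the process and their partners, of which ATG13 and ATG101 form the regulatory part and ATG11 is a scaffold. Their median log2 fold change was 0.13, with 6 above 0 and 1 below. The highest was ATG1A, which had 12.99, 11.7 and 12.6 FPKM in 17ab and 8.87, 9.43 and 12.2 FPKM in WT. Its groups overlapped through 1 WT library, and the log2 fold change was 0.27 ± 0.12 (edgeR adjusted p = 0.1753). The lowest was ATG1B, with 7.82, 9.02 and 7.62 FPKM in 17ab and 7.98, 9.44 and 8.42 FPKM in WT, overlapping groups that differed by -0.12 ± 0.12. ATG1B and ATG1C are 81.7% identical over their coding sequence and shared reads in 4 of the 6 libraries, so that their separate values are uncertain. Their summed count differed by 0.03 ± 0.08 on the log2 scale (edgeR adjusted p = 0.8709). ATG11 and, with that uncertainty, ATG1C had every 17ab library above every WT library, as did 18.2% of all genes tested, and each differed by 0.13 without passing. Levels in the initiation group ranged from 3.13 FPKM for ATG13B to 16.1 FPKM for ATG13A in 17ab, and from 2.82 to 14.1 FPKM for the same genes in WT.

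ATG2 was the autophagy gene closest to the threshold without passing it. The protein is a lipid transfer protein in yeast and mammals, and ATG9 is the membrane protein of the vesicles that seed the autophagosome. ATG2 (AT3G19190) had 9.42, 11.0 and 11.7 FPKM in 17ab, against 9.16, 8.03 and 8.44 FPKM in WT. The groups did not overlap, with a narrow gap between the lowest 17ab and the highest WT library. The log2 fold change was 0.30 ± 0.10 and the edgeR adjusted p was 0.06055. Without 17ab replicate 1 it was 0.39 with an adjusted p of 0.01494, and over the alternatives run the adjusted p lay between 0.01494 and 0.2404. ATG9 had 8.02, 7.25 and 8.76 FPKM in 17ab and 7.23, 7.41 and 7.41 FPKM in WT. Its groups overlapped through 1 17ab library, and the difference was 0.10 ± 0.11.

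None of the 4 genes of the phosphatidylinositol 3-kinase complex passed the test, and their median log2 fold change was 0.14, with all 4 above 0. Their groups did not overlap, as was so in this direction for 18.2% of all genes tested, and in 2 of them the gap was small: the lowest 17ab and highest WT library had 11.3 and 11.2 FPKM for VPS15, and 14.8 and 14.7 FPKM for ATG6. They are VPS34, the lipid kinase, VPS15, its regulatory subunit, ATG6, the plant Beclin, and ATG14A, the subunit that directs the complex to autophagy. ATG14A had 5.73, 7.16 and 5.65 FPKM in 17ab and 5.13, 4.86 and 4.69 FPKM in WT, a difference of 0.29 ± 0.17 (edgeR adjusted p = 0.2905). VPS34 had 15.98, 16.02 and 16.6 FPKM in 17ab and 14.7, 15.0 and 14.5 FPKM in WT, a difference of 0.11 ± 0.08 (edgeR adjusted p = 0.4191). These were the highest and the lowest difference of the group. In VPS34 the libraries of each genotype lay within 1 FPKM of each other. VPS15 shares 829 bases with AT4G29390 on the other strand, a more abundant gene that averaged 87.5 FPKM in 17ab and 101.9 FPKM in WT and fell (edgeR adjusted p = 0.03927).

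The ATG18 genes, whose proteins bind phosphatidylinositol 3-phosphate on the growing membrane, had a median log2 fold change of 0.07, with 6 of the 7 listed genes above 0 and 1, ATG18B, below. None of the 7 passed. The highest was ATG18A, with 19.2, 17.0 and 18.4 FPKM in 17ab and 13.4, 15.6 and 16.1 FPKM in WT, which did not overlap. Its log2 fold change was 0.25 ± 0.11 (edgeR adjusted p = 0.1422). ATG18G gave 13.4, 13.2 and 12.9 FPKM in 17ab and 11.5, 11.2 and 10.7 FPKM in WT, with a wider gap between the groups than within them, and a difference of 0.21 ± 0.08 (edgeR adjusted p = 0.09153). The lowest was ATG18B, with 5.42, 6.0 and 5.79 FPKM in 17ab, against 6.25, 8.84 and 7.19 FPKM in WT. There the WT libraries were spread more widely than the 17ab libraries, and the difference was -0.40 ± 0.18 (edgeR adjusted p = 0.1684). ATG18C and ATG18F differed by 0.01 and 0.04, and ATG18D, the least abundant listed gene of the 40, had 3.63, 1.72 and 3.03 FPKM in 17ab and 2.34, 2.52 and 2.74 FPKM in WT. ATG18A was the most abundant of the family in either genotype.

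In the conjugation group, 4 genes were above 0 and 5 below, and the median was -0.04. ATG7 is the activating enzyme of both routes, ATG3 and ATG10 are the conjugating enzymes for ATG8 and ATG12, ATG5 receives ATG12, ATG16 joins that pair, and ATG4 is the protease that prepares ATG8. The highest was ATG16, which had 9.67, 8.90 and 9.17 FPKM in 17ab and 7.76, 7.47 and 7.60 FPKM in WT. Its groups lay well apart for their narrow spread, while the log2 fold change of 0.25 ± 0.12 did not pass (edgeR adjusted p = 0.1874). The lowest was ATG12B, with 3.31, 4.51 and 3.32 FPKM in 17ab and 4.30, 4.99 and 3.94 FPKM in WT, overlapping groups with a difference of -0.41 ± 0.32 at a mean of 14.0 counts per library. ATG5 had 12.7, 15.3 and 14.9 FPKM in 17ab and 17.5, 16.4 and 15.2 FPKM in WT. Its groups overlapped by 1 library, with a difference of -0.22 ± 0.11 (edgeR adjusted p = 0.2015). ATG5 shares 597 bases with AT5G17280 on the other strand, which averaged 38.3 FPKM in 17ab and 38.6 FPKM in WT. ATG4A differed by -0.19 ± 0.11 and ATG4B by 0.07 ± 0.12. ATG4A shares 1445 bases with AT2G44130 on the other strand. That neighbour averaged 31.7 FPKM in 17ab and 40.8 FPKM in WT and fell (edgeR adjusted p = 0.0352). The ATG4A reads were whole counts in all 6 libraries, and whether the shared bases affect them was not tested. ATG3, ATG7, ATG10 and ATG12A differed by between -0.07 and 0.07.

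The 9 ATG8 genes encode the ubiquitin-like protein that is attached to the autophagosome, and none of them passed the test. ATG4 is known to cut ATG8 behind a glycine, whose exposed end is then joined to the lipid. The last 30 bases of the longest annotated coding sequence of each gene, from the TAIR10.1 sequence by RefSeq annotation and with the glycine codon after the threonine and phenylalanine codons in capitals, show what lies behind that glycine. For ATG8C the annotation holds 2 distinct coding ends, of which the 1 in the longest coding sequence is shown. In these ends, the glycine codon of ATG8H and ATG8I is directly followed by the stop codon, 2 codons lie between them in ATG8C, and between 3 and 5 do in the other six. The strands and positions are chr4:11656780-11656809, plus strand, for ATG8A, chr4:2328663-2328692, minus strand, for ATG8B, chr1:22934224-22934253, plus strand, for ATG8C, chr2:2083211-2083240, minus strand, for ATG8D, chr2:18625497-18625526, plus strand, for ATG8E, chr4:9306882-9306911, minus strand, for ATG8F, chr3:22416942-22416971, plus strand, for ATG8G, chr3:1955219-1955248, minus strand, for ATG8H, and chr3:5274075-5274104, minus strand, for ATG8I. The ends read 5′ to 3′ as follows.
ATG8A: aacacttttGGAtctcttaccgttgcttga
ATG8B: aacacatttGGTggatctttctactgctaa
ATG8C: agtggagagaacacctttGGTttggtttaa
ATG8D: ggtgagaacacgttcGGGatcttcttctaa
ATG8E: gagaacacattcGGTgcttcttcaatctaa
ATG8F: gaaaacacatttGGAtttggatctccataa
ATG8G: gaaaacacttttGGAtcgtcaatgacttaa
ATG8H: tgctacagcaccgagaaaactttcGGCtaa
ATG8I: tgctatagcagtgagaaaacctttGGTtga

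In level the family was led by ATG8F and ATG8E. ATG8F had 84.0, 85.8 and 88.3 FPKM in 17ab, against 78.8, 77.5 and 79.6 FPKM in WT. The groups did not overlap, and the log2 fold change was 0.12 ± 0.08 (edgeR adjusted p = 0.3399). ATG8E had 53.6, 65.9 and 72.5 FPKM in 17ab and 69.3, 63.3 and 70.1 FPKM in WT. The 17ab libraries were spread around the WT libraries, and the difference was -0.11 ± 0.11. Together these genes made up 52.6% ± 2.55 of the summed ATG8 FPKM in 17ab and 52.7% ± 1.83 in WT (SD, n = 3 each). The summed level was 285.0 ± 8.51 FPKM in 17ab and 277.2 ± 2.99 FPKM in WT (SD, n = 3 each), with overlapping libraries.

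The other ATG8 genes lay between 3.75 and 31.5 FPKM in single libraries. ATG8C had 30.5, 30.6 and 28.3 FPKM in 17ab and 31.5, 29.6 and 28.3 FPKM in WT. ATG8A had 30.5, 30.7 and 24.2 FPKM in 17ab and 28.5, 29.9 and 24.0 FPKM in WT. In these genes the groups covered the same range. ATG8I had 22.9, 21.3 and 23.5 FPKM in 17ab and 25.1, 24.1 and 22.4 FPKM in WT. ATG8D had 21.9, 18.2 and 25.4 FPKM in 17ab and 16.8, 20.6 and 24.1 FPKM in WT. Their groups overlapped as well, with differences of -0.11 ± 0.11 for ATG8I and 0.07 ± 0.16 for ATG8D. ATG8B had 15.4, 14.4 and 15.4 FPKM in 17ab and 12.6, 13.3 and 13.8 FPKM in WT. ATG8H had 13.1, 13.8 and 12.2 FPKM in 17ab and 12.9, 14.0 and 7.74 FPKM in WT. ATG8B was higher in every 17ab library, while the ATG8H difference of 0.14 ± 0.22 was -0.08 without the low WT replicate 3. ATG8G was lowest, with 4.60, 4.59 and 3.75 FPKM in 17ab and 4.99, 4.52 and 4.54 FPKM in WT. The 95% interval of the difference held 0 for each of the 9 genes, and the order by mean was the same in both genotypes for ATG8F and ATG8E at the top and ATG8G at the bottom. Over the 36 pairs, coding identity ran from 56.9% to 85.3% with a median of 70.8%. The highest was ATG8A with ATG8B, which shared reads in all 6 libraries, and their summed count differed by 0.08 ± 0.09 (edgeR adjusted p = 0.6313).

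**Figure D4:**
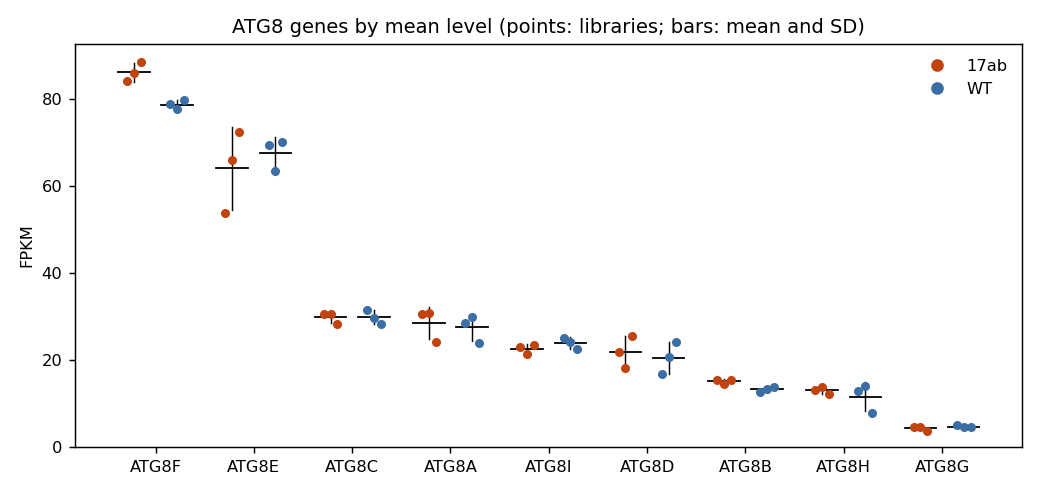
FPKM of the 9 ATG8 genes in each 17ab and WT library, ordered by mean level over all libraries, with points for libraries, horizontal bars for means and vertical bars for SD over 3 libraries. ATG8F and ATG8E stand above 50 FPKM in every library and the other 7 genes lie below 32 FPKM.

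Transcript levels across the 40 genes covered a wide range that the genotypes shared. Of the listed genes, 9 averaged at least 20 FPKM over all libraries and 5 averaged under 5 FPKM. The first group holds NBR1, ATG3, ATG4A and 6 of the ATG8 genes. The second holds ATG8G, ATG12B, ATG13B, ATG18C and ATG18D. Beside ATG8A, ATG8B, ATG1B and ATG1C, ATG18D was the fifth member with reads divided between genes. In 7 members the deposited gene length varied by over 10% between libraries, which moves FPKM and not the counts tested. In all, 15 members overlap another annotated gene. By position, 14 of the 40 genes (35.0%) lie on chromosome 3, which holds 19.8% of protein-coding genes.

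**Figure D5:**
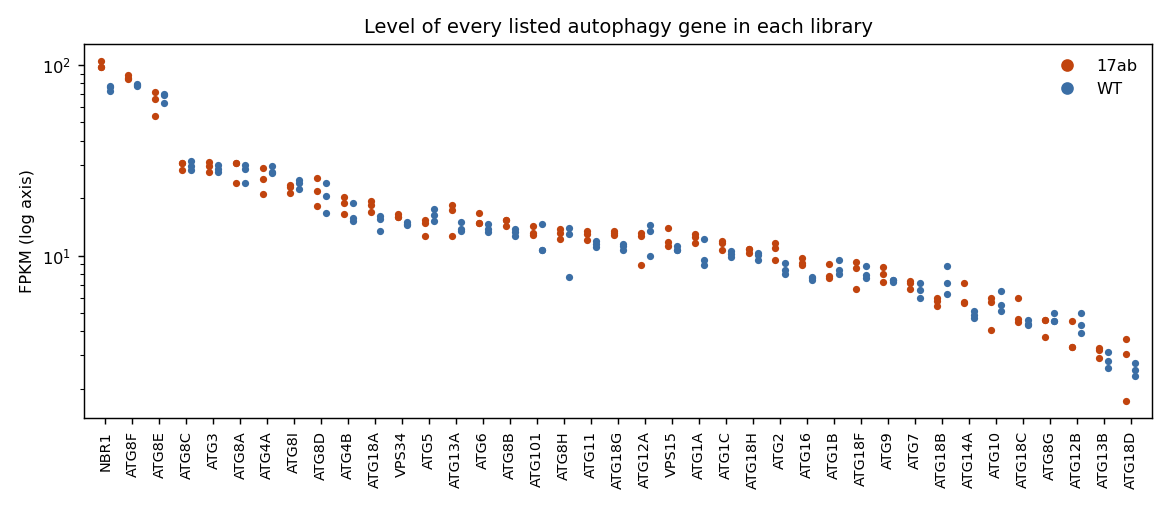
FPKM of each listed autophagy gene in the 17ab and WT libraries on a log axis, with 1 point per library and genes ordered by their mean over all libraries. NBR1 leads at 73.1 to 104.8 FPKM, ATG18D is last at 1.72 to 3.63 FPKM, and the points of the genotypes lie close together for most genes.

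The upstream sequence of the genes, 250 bases before to 50 after the annotated start, was searched on both strands for 4 short motifs chosen after the expression values were known. TGACG, the core of sites for TGA factors, was found in 15 of the 40 (37.5%) and in 23.1% of 27444 promoters. CACGTG, the G-box, was found in 3 (7.5%) and in 7.7% of promoters. TTGAC, the core of the W-box, was found in 18 (45.0%), NBR1 among them, and in 50.5% of promoters. The endoplasmic reticulum stress element, the longest of the motifs, was found in ATG13A alone (2.5%) and in 0.8% of promoters. A run of TTGACG counts for both TTGAC and TGACG. These matches describe letters in the window.

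A list of 28 other genes of the pathway was chosen from general knowledge, with earlier results of these data known. It covers the upstream kinases, trafficking factors and further receptors. Of these genes, 27 were tested, 3 rose and none fell. The share of 11.1% compares with the 14.1% called over all genes. Their median log2 fold change was 0.07. S6K2 (AT3G08720), a kinase that TOR, the growth kinase that restrains autophagy, acts on, had 13.7, 11.4 and 11.7 FPKM in 17ab and 4.24, 5.67 and 6.62 FPKM in WT. The 17ab libraries lay above all WT libraries, with a difference of 1.09 ± 0.15 (edgeR adjusted p = 0.0004571). S6K2 is the direct neighbour of S6K1, with 88.6% coding identity, and the pair shared reads in 4 libraries. In the libraries where the counts were whole, S6K2 had 147 reads in 17ab replicate 3 and 81 in WT replicate 3. Their summed count differed by 0.22 ± 0.08 and did not pass (edgeR adjusted p = 0.07735). TOR itself differed by 0.15 ± 0.08 (edgeR adjusted p = 0.2153). None of the 5 SnRK1 kinase subunits, the energy sensor that promotes autophagy, passed.

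The other risers were 2 of the 8 further receptors tested (25%, against 14.1% called over all genes). The remaining 6 did not pass. Of the 8, RPN10 and ATI3A were below 0 (log2 fold changes -0.14 and -0.05). ATI2 (AT4G00355), which binds ATG8, had 29.9, 30.9 and 33.8 FPKM in 17ab and 23.5, 24.7 and 24.5 FPKM in WT. The groups did not overlap, and the difference was 0.35 ± 0.09 (edgeR adjusted p = 0.01842). DSK2B (AT2G17200), a ubiquitin receptor, had 44.6, 46.7 and 45.7 FPKM in 17ab and 36.2, 37.5 and 38.6 FPKM in WT. Its groups did not overlap, with a difference of 0.26 ± 0.07 (edgeR adjusted p = 0.02256). DSK2B and the adjacent DSK2A, with 91.0% coding identity, shared reads in all 6 libraries, and their sum differed by 0.19 ± 0.07 (edgeR adjusted p = 0.07116). The calls of ATI2 and DSK2B were each lost when any WT library was left out: the differences were then 0.34 to 0.36 for ATI2 and 0.25 to 0.28 for DSK2B. Without 17ab replicate 3 they were lost too (edgeR adjusted p = 0.07543 for ATI2 and 0.05572 for DSK2B). DSK2B was also lost without 17ab replicate 2 (edgeR adjusted p = 0.07014). Neither was called with DESeq2 (adjusted p = 0.1119 for each), and over all alternatives run the adjusted p lay between 0.01653 and 0.1119 for ATI2 and between 0.01851 and 0.1119 for DSK2B. S6K2 was called in every fit that tested it singly.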

How the data were processed

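Per the file headers, each deposited table gives gene lengths, expected counts and FPKM values. The submitters' processing notes name TAIR10, STAR 2.4.0, HTSeq 0.6.0 and DESeq2, with no role for any; the program that made the values, and any use of strand, are not given in the sources used here. Library labels carry 1 run and lane for all. The expected counts the authors deposited were whole for 91.3% to 91.8% of listed genes per library (tolerance 1e-06). The deposited FPKM values are scaled to gene length and library size. Tables list genes above 0, so an unlisted gene was taken as 0.

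Rounded expected counts went into edgeR 4.0.16 under R 4.3.3 (quasi-likelihood test, trimmed mean of M-values scaling, default expression filter, genotype as the single term, all 6 libraries), and 95% intervals come from the same fit. The 17854 genes kept hold 99.78% of the counts. A floor of 3 counts is 0.477 to 0.503 CPM per library, for counting error only. Names, overlaps and sequences come from TAIR10.1, which matched 99.2% of listed genes. Replicate libraries differed by more than counting noise (chi-square per degree of freedom 2.5 to 4.35 within groups), and all were kept.

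The genes and lists were chosen with earlier results of these data known. Described per library are the called genes, the ATG8 genes and the highest and lowest difference of each step; ATG5, ATG18D and ATG18G were added after their values were seen. Also chosen after seeing values were the 1.5-fold interval check, the count of groups that do not overlap, the motifs, the coding ends shown, the sums of read-sharing pairs and the scaling by GC content and length. Alternatives tried were DESeq2 1.42.0 (Wald test, and its size factors in edgeR), no filter, a filter of 5 CPM in 3 libraries, each library left out, the replicate number as a block, genes with split reads left out, and limma-trend (limma 3.58.1) on log2 FPKM after adding 1 or 0.1, where 3 libraries reached 1 FPKM.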

Additional observations from a re-analysis of the deposited data

How the results depend on the processing

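NBR1 was called in all 14 fits that tested it again, with log2 fold changes of 0.31 to 0.40 and adjusted p-values of 0.0002078 to 0.01521. The count of autophagy genes called was 1 to 2 with a library left out, ATG2 being the second without 17ab replicate 1, and 1 in the rest. The count over all genes was 1599 (7.86%) with DESeq2 and 1571 to 2090 (8.67% to 11.6%) with a library left out. Of all genes, 15.6% were called with the 5 CPM filter, 14.1% with DESeq2 size factors and 14.3% with the GC and length scaling. With limma-trend the share was 10.6% and 10% after adding 1 and 0.1 FPKM. Among the other pathway genes the count called was 1 with DESeq2, with split-read genes left out or with pairs summed, and 1 to 3 with a library left out. The autophagy median stayed above 0: 0.101 with the 5 CPM filter, 0.112 and 0.13 with limma-trend after adding 1 and 0.1 FPKM, 0.04 with the GC and length scaling, 0.077 with no filter, 0.081 with DESeq2, 0.085 with its size factors, and 0.074 to 0.096 with a library left out. The median of all genes moved as well. It was 0.024 and 0.027 with limma-trend after adding 1 and 0.1 FPKM, and -0.04 with the GC and length scaling. The spread between replicates set against the shifts of the autophagy median was an SD of 0.011, pooled within genotypes. It was chosen after the shifts were seen, in place of a smaller one over the 17ab libraries alone.

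The replicate numbers did not pair the samples (correlations of same-numbered deviations -0.007, -0.107 and -0.044). With the replicate block, 1853 of all genes were called, 1 autophagy gene and 2 other pathway genes, and the median was 0.076. The call lost was DSK2B (adjusted p = 0.05567), which was lost with the GC and length scaling too (0.06257).

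Genes near 0 that were not called changed sign. With no filter ATG18C was at -0.002 and ATG3 at -0.004, with DESeq2 ATG3 at 0.00, with limma-trend on either pseudocount ATG8C at 0.00, and with the GC and length scaling ATG18C was at -0.037, ATG18F at -0.041, ATG3 at -0.027 and ATG12A at 0.001. With a library left out the ranges were -0.047 to 0.067 for ATG18C, -0.133 to 0.339 for ATG18D, -0.018 to 0.105 for ATG18F, -0.041 to 0.053 for ATG3, -0.014 to 0.203 for ATG4B, -0.009 to 0.126 for ATG7, -0.149 to 0.086 for ATG10, -0.142 to 0.122 for ATG12A, -0.069 to 0.129 for ATG8A, -0.069 to 0.024 for ATG8C, -0.06 to 0.191 for ATG8D, -0.209 to 0.014 for ATG8E and -0.079 to 0.291 for ATG8H. The cause was not tested. The standard error was highest for ATG12B, at 0.32 with a mean of 14.0 counts per library, and lowest for NBR1, at 0.07 with a mean of 1509.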
